A study of Mus musculus with 16 samples.

Results

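MHC class I antigen presentation was followed through 10 genes in primary mouse mammary tumors: the class I heavy chains H2-K1 and H2-D1, the light chain B2m, the peptide transporter subunits Tap1 and Tap2, tapasin (Tapbp), the induced proteasome subunits Psmb8, Psmb9 and Psmb10, and the transactivator Nlrc5. The genes were chosen by name as the core of the pathway, matched through their Ensembl identifiers, and all 10 were found among the 23609 genes of the table. All 10 were also among the 21034 genes whose mean over the tumors was at least 10 and which were tested. RNA-seq had been done on mammary tumors of MMTV-PyMT mice, in which the mouse mammary tumor virus promoter drives the polyoma middle T oncogene in mammary epithelium. The wildtype group held MMTV-PyMT mice with both Resf1 alleles intact. The gene trap group held their MMTV-PyMT/Resf1 +/- littermates, which carry one Resf1 allele interrupted in its first exon by a lentiviral insertion that also expresses an EGFP-cre fusion. The trap came from a C57BL/6-based strain crossed to FVB/MMTV-PyMT mice, and the tumors of both groups share the transgene and this cross. The insertion is carried by every cell of the animal, stromal and immune cells included. Whether the tumors kept the other Resf1 allele was not tested. The labels describe 8 tumors per group, and 5 per group could be matched to a column of the table by name. The age of the mice is not given in the sources used here.

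Every value below is a normalized count: an estimated number of reads per gene, scaled by the study so that the tumors are on one scale. Resf1 itself was 4215, 4397, 3881, 4487 and 3517 in wildtype tumors 1 to 5 and 4029, 3066, 3686, 3392 and 3409 in gene trap tumors 1 to 5. The mean of the gene trap group was lower, but the 2 groups overlapped. The log2 fold change was -0.22 ± 0.09 (SE, n = 5 and 5), with an unadjusted p of 0.0313 and an adjusted p of 0.9997 in limma, a linear model fitted to all tested genes at once. The exact two-sided permutation test over the 252 arrangements of the tumors gave 0.0635.

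Class I molecules show peptides from inside the cell to CD8 T cells and to natural killer cells. The proteasome, with its interferon-induced subunits in place of the constitutive ones, cuts proteins into peptides, the TAP transporter carries them into the endoplasmic reticulum, and tapasin holds the empty heavy chain and light chain at the transporter until a peptide is bound. NLRC5 has no DNA-binding domain of its own and is recruited to class I promoters by factors that sit on a set of short boxes upstream of the gene, and interferon gamma raises most of these genes. Tumors commonly lower this pathway, and tumor and immune cells both express it.

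Promoter windows from RefSeq (GRCm38.p6), 250 bases before to 50 after the start, were at hand for 8 of the 10 genes. The parts upstream of the start are shown for the genes that hold the boxes on which the class I assembly sits and for the shared promoter of Tap1 and Psmb9. Capitals mark 4 searched motifs, read on both strands: GGGATTCCC (an NF-kB site), AANTGAAA (an interferon response core, here also as TTTCACTT on the other strand), TGACG (the core of the X2 box) and ATTGG (the Y box, CCAAT on the other strand). A mark is a match of letters and need not be the box in parentheses. The CCAAT of H2-D1 and both marks of Psmb9 lie outside the spacing described below.
H2-K1 (chr17:34000354-34000462, minus strand, bases -115 to -7): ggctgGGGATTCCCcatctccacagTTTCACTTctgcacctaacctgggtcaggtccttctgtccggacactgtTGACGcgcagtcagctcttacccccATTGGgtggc
H2-D1 (chr17:35262919-35263050, plus strand, bases -175 to -44): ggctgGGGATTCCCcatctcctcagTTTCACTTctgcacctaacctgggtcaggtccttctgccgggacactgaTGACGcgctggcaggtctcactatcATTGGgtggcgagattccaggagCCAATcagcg
B2m (chr2:122147545-122147643, plus strand, bases -142 to -44): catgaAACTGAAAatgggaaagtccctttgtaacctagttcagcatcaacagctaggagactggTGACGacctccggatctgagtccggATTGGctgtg
Psmb9, facing Tap1 (chr17:34187331-34187479, minus strand, bases -149 to -1): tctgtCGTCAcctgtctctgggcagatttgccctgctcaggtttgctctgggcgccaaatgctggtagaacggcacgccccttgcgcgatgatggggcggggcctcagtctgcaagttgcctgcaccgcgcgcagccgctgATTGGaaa

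In H2-K1, H2-D1 and B2m, TGACG was followed after exactly 20 bases by ATTGG. That spacing was noticed in these sequences and then counted, and it was held by 31 of 32851 windows (0.0944%), with H2-M3 the other gene of the class I lists among them. Of the 30 bases from TGACG to ATTGG, 23 were identical between H2-K1 and H2-D1 and 13 between H2-K1 and B2m. The motif GGGATTCCC was in H2-K1 and H2-D1 and in 0.353% of all windows, AANTGAAA was in H2-K1, H2-D1 and B2m and in 6.58%, TGACG was in these 3 genes, Tap1 and Psmb9 and in 20.8%, and ATTGG was in these 5 genes and Tapbp and in 37.4%. None of the matches overlapped another. The starts of Tap1 and Psmb9 lie 226 bases apart on opposite strands, so that 275 of the 300 bases of their windows are the same. These letters describe the windows only, and no factor's binding was measured. The windows are those of the reference genome, and whether the FVB alleles in these tumors hold the same letters was not tested.

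Per length of transcript, the 10 genes spanned a wide range in these tumors. B2m was the highest, at 12016 ± 1688 normalized counts per kilobase (SD, n = 10 tumors), followed by H2-D1 at 9561 ± 1655 and H2-K1 at 8590 ± 1217, and the ranges of these neighbours overlapped. Tapbp, at 1672 ± 255, and Psmb8, at 1315 ± 248, overlapped each other and lay below the heavy chains without overlap. Psmb10 followed at 719 ± 92.9, Tap2 at 550 ± 105, Tap1 at 485 ± 62.4 and Psmb9 at 360 ± 59.8, each overlapping the next. Nlrc5 was the lowest, at 71.1 ± 14.9, and its highest tumor, at 92.8, was below the lowest Psmb9 value of 304. Lengths were those of the principal transcript in GENCODE mouse release M21.

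None of the 10 genes differed between gene trap and wildtype tumors beyond the spread between tumors. Among all tested genes, 0 of 21034 (0%) had an adjusted p under 0.05 in limma, and 479 (2.28%) had an unadjusted p under 0.05, of which 278 were higher and 201 lower in the gene trap group. The corresponding counts for the 10 genes were 0 and 0. All 5 tumors of one group lay above all 5 of the other for 0 of the 10 genes and for 0.528% of the tested genes. The fitted difference was below 0 for 8 of the 10 genes, with a median log2 fold change of -0.05, where 48.6% of all tested genes were below 0. The adjusted p of every one of the 10 genes was 0.9997. The 95% confidence intervals of the 10 genes reached from a fold of 0.664 (Nlrc5) to one of 1.36 (Tap2).

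**Figure D1:**
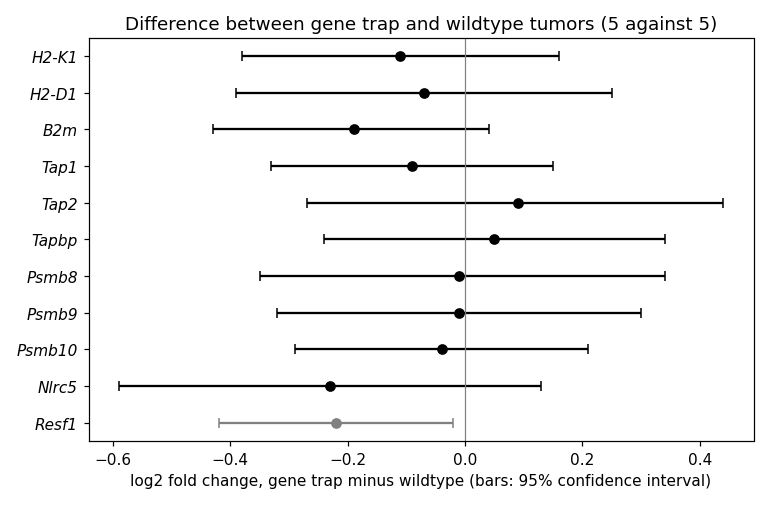
Log2 fold change of each gene, gene trap minus wildtype, on the x axis, with the 95% confidence interval from limma, for the 10 class I genes (black) and Resf1 (grey). The intervals of all 10 class I genes include 0, with B2m at -0.19 and Nlrc5 at -0.23 farthest to the left.

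The heavy chains carry the peptide groove and were, per length, the most abundant transcripts after B2m. H2-K1 (ENSMUSG00000061232) was 13774, 14327, 16597, 16547 and 11060 in wildtype tumors 1 to 5 and 13238, 14388, 11658, 11923 and 15562 in gene trap tumors 1 to 5. Its highest and lowest values were both in wildtype tumors, 3 and 5, and the log2 fold change between groups was -0.11 ± 0.12 (SE; exact permutation p = 0.421). H2-D1 (ENSMUSG00000073411) was 17143, 21541, 24166, 24528 and 15710 in the wildtype tumors and 17769, 24748, 17161, 17516 and 20690 in the gene trap tumors. Here wildtype tumors 2, 3 and 4 and gene trap tumors 2 and 5 lay at 20690 or above and the other 5 tumors at 17769 or below, and the groups differed by -0.07 ± 0.15 (exact permutation p = 0.690). The class I genes of the mouse are close copies of each other, the FVB and C57BL/6 parents carry different class I haplotypes, and the study's processing notes name mm39, which is C57BL/6, as the genome; how reads were divided among the copies and haplotypes was not tested.

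B2m (ENSMUSG00000060802), the light chain that every classical class I molecule needs to reach the surface, was 9652, 10824, 13442, 11490 and 9808 in wildtype tumors and 10320, 10587, 8539, 8410 and 10269 in gene trap tumors. Wildtype tumors 2, 3 and 4 were above all gene trap tumors, gene trap tumors 3 and 4 were below all wildtype tumors, and wildtype tumors 1 and 5 lay below gene trap tumors 1, 2 and 5. The log2 fold change was -0.19 ± 0.11, with an unadjusted limma p of 0.0938, the smallest among the 10 genes, and an exact permutation p of 0.135.

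Both subunits of the peptide transporter showed the same tumors high and low. Tap1 (ENSMUSG00000037321) was 1300, 1709, 1683, 1508 and 1200 in wildtype tumors and 1200, 1436, 1329, 1375 and 1577 in gene trap tumors. Tap2 (ENSMUSG00000024339) was 1451, 2216, 2014, 2100 and 1416 in wildtype tumors and 1501, 2428, 1707, 1856 and 2248 in gene trap tumors. Gene trap tumor 2 was the highest of all for Tap2 and the fifth highest for Tap1, and wildtype tumor 5 was the lowest or tied lowest for both. The differences between groups were -0.09 ± 0.11 for Tap1 (exact permutation p = 0.484) and 0.09 ± 0.16 for Tap2 (exact permutation p = 0.643). Tapbp (ENSMUSG00000024308), which bridges the transporter and the empty class I molecule, was 4376, 5537, 5035, 5382 and 3531 in wildtype tumors and 4025, 5999, 4585, 4840 and 5135 in gene trap tumors. Its extremes were wildtype tumor 5 and gene trap tumor 2, and its difference was 0.05 ± 0.13 (exact permutation p = 0.762).

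The induced proteasome subunits replace the 3 catalytic subunits of the standard proteasome and change which peptides are made. Psmb8 (ENSMUSG00000024338), which takes the place of Psmb5, was 1847, 2616, 2373, 2239 and 1635 in wildtype tumors and 1790, 2607, 1839, 1789 and 2677 in gene trap tumors. The group means, 2142 ± 397 and 2140 ± 459 (SD, n = 5 each), were nearly equal, while gene trap tumors 2 and 5 stood well above the other 3 of their group, which held 1789 to 1839. Psmb9 (ENSMUSG00000096727), which takes the place of Psmb6, was 429, 478, 630, 492 and 411 in wildtype tumors and 427, 595, 427, 416 and 559 in gene trap tumors. Psmb10 (ENSMUSG00000031897), which takes the place of Psmb7, was 945, 1022, 1092, 919 and 792 in wildtype tumors and 820, 1156, 830, 865 and 991 in gene trap tumors. The log2 fold changes were -0.01 ± 0.16 for Psmb8, -0.01 ± 0.14 for Psmb9 and -0.04 ± 0.12 for Psmb10, with exact permutation p-values of 0.960, 0.952 and 0.754.

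The ratio of each induced subunit to the constitutive subunit it replaces was also compared, since it does not depend on the scale of a tumor. Psmb8/Psmb5 was 1.23, 1.48, 1.37, 1.40 and 1.06 in wildtype tumors and 1.23, 0.876, 1.31, 0.985 and 1.63 in gene trap tumors. Gene trap tumor 2 had the lowest ratio of all although its Psmb8 was high, because its Psmb5 was 2977 where the other 4 gene trap tumors held 1402 to 1817. Psmb9/Psmb6 was far lower, with a mean of 0.0891 ± 0.016 in wildtype and 0.0844 ± 0.00695 in gene trap tumors, and Psmb10/Psmb7 averaged 0.309 ± 0.0396 and 0.305 ± 0.0321 (SD, n = 5 each). Gene trap minus wildtype on the log2 scale was -0.14, -0.07 and -0.02 for the 3 ratios, with exact two-sided permutation p-values of 0.444, 0.667 and 0.881, where the smallest p that 5 against 5 tumors allow is 0.00794. The ratios compare counts of transcripts of different length, so their absolute size says nothing of the share of induced proteasomes.

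Nlrc5 (ENSMUSG00000074151) was 537, 554, 703, 695 and 423 in wildtype tumors and 652, 418, 495, 394 and 518 in gene trap tumors. Wildtype tumors 3 and 4 were the highest, gene trap tumor 1 followed, and gene trap tumors 2 and 4 were the lowest. The log2 fold change was -0.23 ± 0.17 (exact permutation p = 0.246), the lowest value of the 10 genes but with the widest interval.

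**Figure D2:**
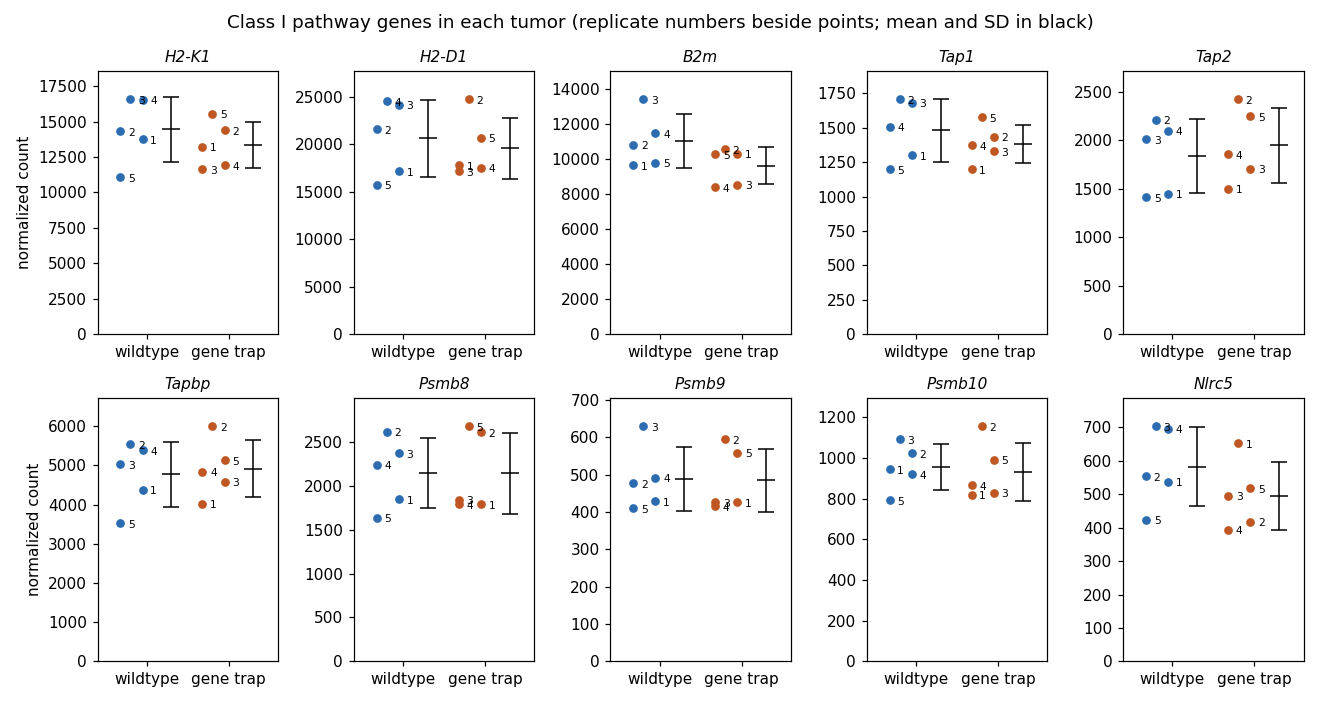
Normalized count of each of the 10 genes (y axis, from 0) in each wildtype (blue) and gene trap (orange) tumor, with the replicate number beside each point and the group mean and SD in black. The groups overlap in every panel, and the same replicate numbers (2, 3 and 4 of wildtype, 2 and 5 of gene trap) sit at the top of most panels.

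What the genes had in common was which tumors were high. For H2-K1, H2-D1, Tap1, Tap2, Tapbp, Psmb8 and Psmb9, 7 of the 10 genes, the 5 highest tumors were wildtype 2, 3 and 4 and gene trap 2 and 5. For B2m and Psmb10, 4 of their 5 highest tumors were among these, and for Nlrc5 3 were. Among all tested genes, 333 (1.58%) put these same 5 tumors above the other 5. The 5 tumors were noticed in the values of these genes, come from both genotypes, and are no group of the study, so the count is a description without a test. In proportion the separation was widest for Psmb8, with 2239 as the lowest of the 5 and 1847 as the highest of the others, and it was narrow for H2-K1, with 14327 against 13774. Wildtype tumor 5 was the lowest tumor, or tied for it, for 8 of the 10 genes, all but B2m and Nlrc5.

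Other measures of the tumors were set beside this order. Column totals were 34267248 to 42153593 in wildtype 2, 3 and 4 and gene trap 2 and 5. They were 31995078 to 35826774 in the others, of which only gene trap 4, at 35826774, was above 33383625. The part of the column totals in the shared order was not tested. Tumors differed in how their values followed the GC content of transcripts: Spearman's rho between a gene's deviation from its mean and its transcript GC content was 0.26, 0.09, 0.19, 0.21 and -0.09 in the 5 tumors named above and -0.26, -0.28, -0.36, -0.01 and 0.10 in wildtype 1 and 5 and gene trap 1, 3 and 4. It was above 0 in 4 of the 5 and in 1 of the others, and gene trap 5, at -0.09, lay below gene trap 3 and 4. The transcripts of 9 of the 10 genes had a GC content of 52.6% to 57.3%, B2m had 41.2%, and the median tested gene had 49.3%. After the trend with GC content was removed from each tumor, the 5 tumors still held the 5 highest values for 6 of the 10 genes, namely H2-D1, B2m, Tap2, Tapbp, Psmb8 and Psmb9, and for 1.02% of all tested genes. B2m joined under this correction, and H2-K1 and Tap1 left.

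The summed level of 14 mammary epithelium markers, which include Epcam, Krt8 and Krt18, was 152138 to 168360 in the same 5 tumors and 132514 to 151752 in the other 5. The margin was narrow, with 152138 in wildtype 3 and 151752 in gene trap 4. Taken one by one, 1 of the 14 markers, Gata3, put the 5 tumors above the rest, where 1.58% of all tested genes did. The 8 leukocyte markers summed to 11496 to 13596 in the 5 tumors and 11969 to 14811 in the others, and the 12 T cell markers to 233 to 397 against 247 to 937. The highest T cell sum, 937, was in gene trap tumor 3, where each of the 10 genes was outside its 5 highest values. That tumor also had the highest B cell marker sum, 716, against 43.4 to 248 in the rest. Each of the 10 genes was likewise outside its 5 highest values in wildtype 5 and gene trap 4, with T cell sums of 407 and 247. The macrophage markers summed to 16807 to 25481 and 17661 to 25810, and the fibroblast markers to 40248 to 74880 and 63024 to 122483. Skeletal muscle markers summed to 2149 to 3281 and 767 to 11512, and endothelium markers to 2912 to 4317 and 3630 to 5534. Wildtype 5 made the upper end of both, where the next highest tumors held 5257 and 5016. The lowest skeletal muscle sum, 767, was in wildtype 1, also outside the 5 tumors. In bulk tumors a larger share of a cell type and more RNA per cell cannot be told apart, and the part of cell composition in the shared order was not tested.

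Gene trap tumor 2 stood apart from the rest over the whole table, with a mean correlation of 0.9626 to the other tumors where the others had 0.9793 to 0.983, and with the largest column total, 42153593 against 31995078 to 37121386. Without it 9 of the 10 genes had a fitted difference below 0, Tapbp changed from 0.05 to -0.03, B2m was -0.23, and again 0 of the 10 genes passed.

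**Figure D3:**
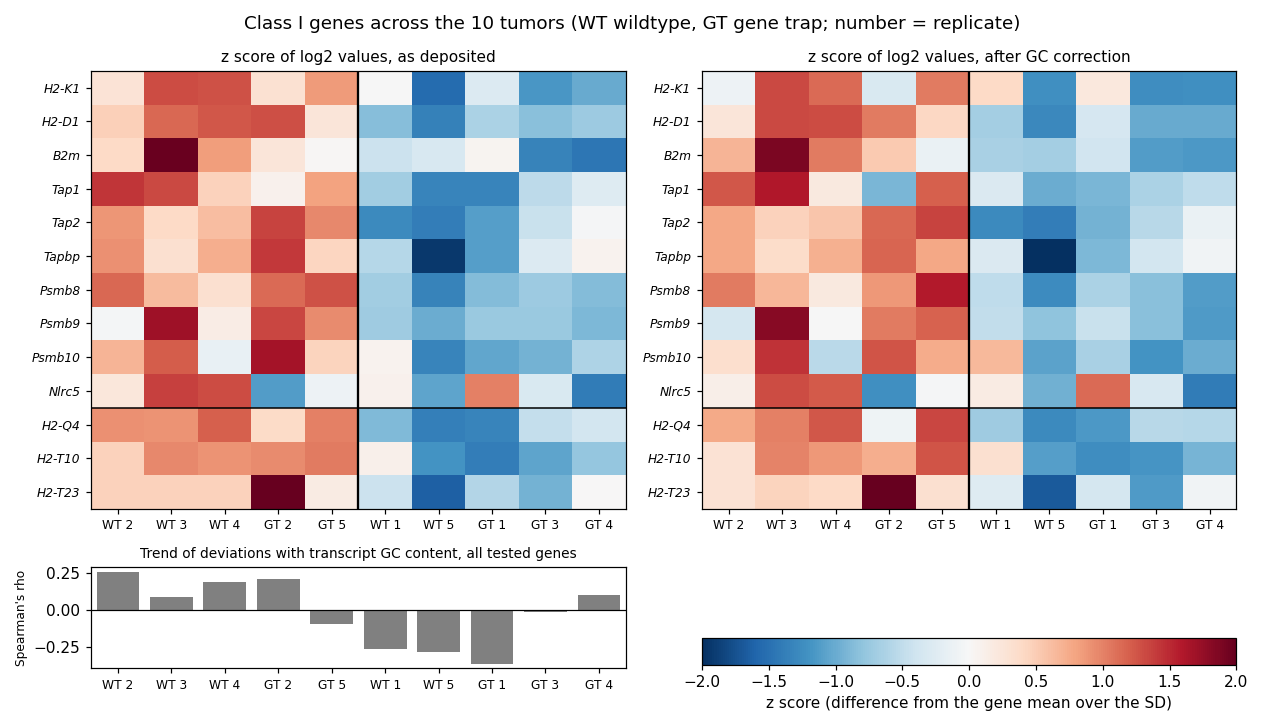
Z scores of log2 values (color, cut at 2 either way) of the 10 genes and 3 further class I genes in rows and the 10 tumors in columns, as deposited (left) and after the GC correction (right), with Spearman's rho of each tumor's deviations with GC content below. Columns left of the black line are wildtype 2, 3 and 4 and gene trap 2 and 5; rows other than Nlrc5 are mostly red there and mostly blue to its right.

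Nlrc5 was then set against the other 9 genes across the 10 tumors, since its product acts on class I promoters. Pearson's r on log2 values was 0.71 with B2m (Spearman's rho 0.73) and 0.69 with H2-K1 (rho 0.61), with permutation p-values of 0.0187 and 0.032 and an adjusted p over the 9 relations of 0.144 for both. As high an r with Nlrc5 was reached by 0.466% and 0.609% of the tested genes. Without wildtype tumor 3 and gene trap tumor 4, the tumors farthest from the median of Nlrc5, r fell to 0.43 and 0.53. The r with H2-D1 was 0.42 (permutation p = 0.216) and with Tap1 0.34 (p = 0.324 by permutation), and without gene trap tumor 2 r with H2-D1 was 0.73. For Psmb9, Psmb8, Psmb10, Tapbp and Tap2 r was 0.29, 0.23, 0.14, 0.10 and 0.04, and the smallest permutation p among these 5 was 0.402. Gene trap tumor 2 combined the second lowest Nlrc5, 418, with the highest Tap2, 2428, and gene trap tumor 1 combined the third highest Nlrc5, 652, with a low Tap2, 1501. With quantile normalization the relations with B2m and H2-K1 came to r of 0.76 and 0.79 with an adjusted permutation p of 0.0409 each. On deviations from the mean of each genotype r was 0.64 and 0.65 (adjusted permutation p = 0.2241 for both), and after the GC correction it was 0.58 and 0.78 (adjusted permutation p = 0.3489 and 0.0918). The other 7 relations had an adjusted permutation p of 0.4073 or more with quantile normalization, and differences between relations were not tested.

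**Figure D4:**
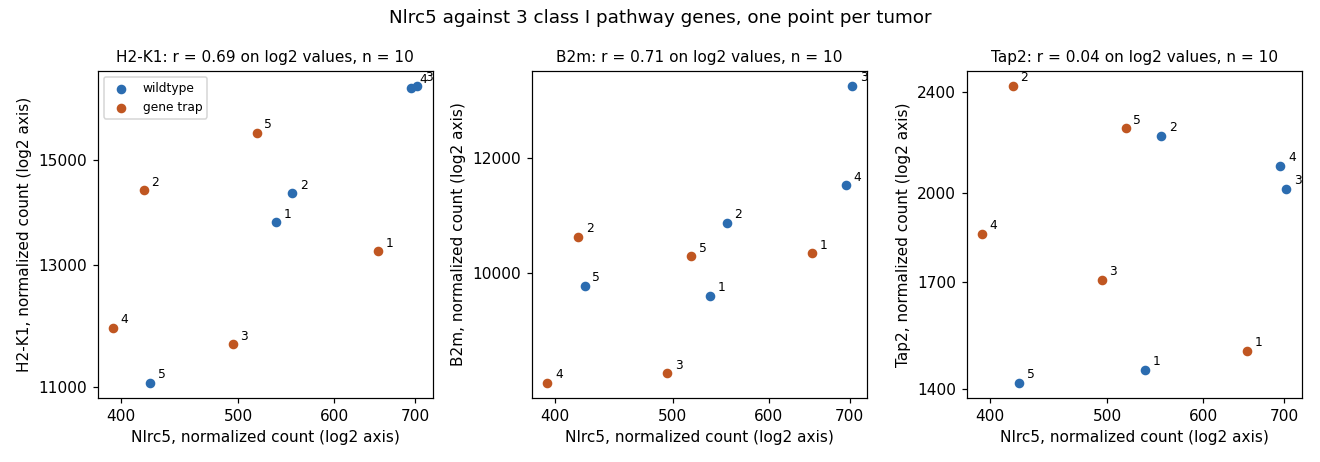
Nlrc5 (x axis, normalized count, log2 axis) against H2-K1, B2m and Tap2 (y axes, normalized count, log2 axes) in 5 wildtype (blue) and 5 gene trap (orange) tumors with replicate numbers. For H2-K1 and B2m (r = 0.69 and 0.71, adjusted permutation p = 0.144 for both) wildtype tumors 3 and 4 are at the upper right and gene trap tumor 4 at the lower left. For Tap2 r is 0.04, and the difference between the panels was not tested.

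The genes whose pattern over the 10 tumors was most like the mean z score of the 10 pathway genes were Sdf4 (r = 0.95), Fbxo6 (0.93), H2-T10 (0.92), Flywch2 (0.92), Zbtb45 (0.91), H2-Q4 (0.91), Zbtb11os1 (0.91), D5Ertd605e (0.90), Rims3 (0.90) and Wdr83os (0.89). They were picked for this r out of all tested genes, and r has no test here. H2-T10, H2-Q4, Sdf4, Flywch2 and Zbtb45 were also among the 10 genes most alike after the GC correction. H2-T10 and H2-Q4, both nonclassical class I genes, share sequence with H2-K1 and H2-D1.

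Outside the 10 genes, 0 genes of the surrounding pathway lists had an adjusted p under 0.05 in limma. Of 19 tested other class I and class I-like genes, 11 were below 0 and 8 above, with a median log2 fold change of -0.07 and 0 with an unadjusted p under 0.05. H2-Q4, H2-T10 and H2-T23, the gene of Qa-1, put the same 5 tumors highest, 3 of the 19 where 1.58% of all tested genes did. After the GC correction H2-T10 left, and 2 of the 19 did so, where 1.02% of all tested genes did. H2-Q4 was 1758, 2377, 2373, 2492 and 1622 in wildtype tumors and 1637, 2172, 1885, 1915 and 2415 in gene trap tumors. H2-T22, which encodes a ligand of some gamma delta T cells, had the smallest unadjusted limma p of the list, with a log2 fold change of -0.18 ± 0.10 (exact permutation p = 0.103).

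The 7 genes of the constitutive proteasome and its activator had 3 below 0 and 4 above, with a median of 0.04, and 0 of them put the same 5 tumors highest. Psme1 and Psme2, the 2 subunits of the interferon-induced PA28 activator, were at -0.12 ± 0.09 and -0.15 ± 0.11 (exact permutation p = 0.198 and 0.317), while Psmb7 was at -0.02 ± 0.08. Of the 10 genes of peptide trimming and endoplasmic reticulum loading, 4 were below 0 and 6 above, with a median of 0.02. Erap1, the aminopeptidase that trims peptides to class I length, was 2865 ± 135 in wildtype and 2527 ± 422 in gene trap tumors (log2 fold change -0.20 ± 0.11, exact permutation p = 0.0952). The chaperone Calr was at 0.09 ± 0.12 and the tapasin relative Tapbpl at 0.02 ± 0.11. None of these 10 genes put the same 5 tumors highest.

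Of 20 genes of class I transcription and interferon gamma signalling, 11 were below 0, with a median of -0.02. The kinase Jak1 was at -0.15 ± 0.07 (exact permutation p = 0.0556) and the receptor chain Ifngr2 at -0.16 ± 0.11 (exact permutation p = 0.159). Of the 15 interferon-induced genes outside the pathway, 14 were below 0, with a median log2 fold change of -0.33, and 2 had an unadjusted p under 0.05, where 48.6% of all tested genes were below 0 and 2.28% had such a p. The guanylate-binding proteins Gbp2 and Gbp3 were at -0.35 ± 0.10 and -0.53 ± 0.21 (exact permutation p = 0.0159 and 0.0714), and Rsad2 (viperin) was at -0.60 ± 0.31 (exact permutation p = 0.135). Their summed level ranged from 8415 to 16429 in wildtype and from 7092 to 11446 in gene trap tumors. Wildtype tumor 2 alone made the upper end, the next wildtype sum being 11708, and it was the highest tumor for 11 of the 15 genes. Without it 12 of the 15 were below 0 with a median of -0.21, and without gene trap tumor 2 13 were, with a median of -0.22. Over all fits with 1 tumor left out, 12 to 15 of the 15 were below 0. The median ranged from -0.43, without wildtype tumor 1, to -0.21. None of the 15 put the 5 tumors above the rest. After adjustment over all tested genes none of them passed, each with an adjusted limma p of 0.9997.

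Another pair of pathway lists had medians near 0. Among 5 tested genes of class I turnover 3 were below 0 (median -0.02), and Sppl2a, Susd6 and Wwp2 had the smallest p, 0.299 or more in limma. Among 7 tested receptors of class I 3 were below 0 (median 0.03), and Klrd1, Cd8a and Cd160 had the smallest p, 0.621 or more in limma. Of the 11 tested T cell markers 9 were below 0, with a median of -0.16, and the sums overlapped (250 to 595 in wildtype, 233 to 937 in gene trap). The 7 myoepithelium markers were all below 0, with a median of -0.36, where 48.6% of all tested genes were below 0. Their sums, 7242 to 9914 in wildtype and 5426 to 7208 in gene trap tumors, did not overlap, by a narrow margin. Taken one by one, 0 of the 7 markers had groups that did not overlap, where 0.528% of all tested genes did. Of the 7, 2 had an unadjusted limma p under 0.05, where 2.28% of all tested genes did, and 0 had an adjusted one. The part of the myoepithelium difference in B2m, Nlrc5 or the interferon-induced genes was not tested. All 4 tested adipocyte markers were below 0, with a median of -0.48 that ranged from -0.74 to -0.17 with 1 tumor left out, and their sums overlapped (2537 to 9617 in wildtype, 1710 to 5580 in gene trap). All 8 fibroblast markers were at or above 0, with a median of 0.10.

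**Figure D5:**
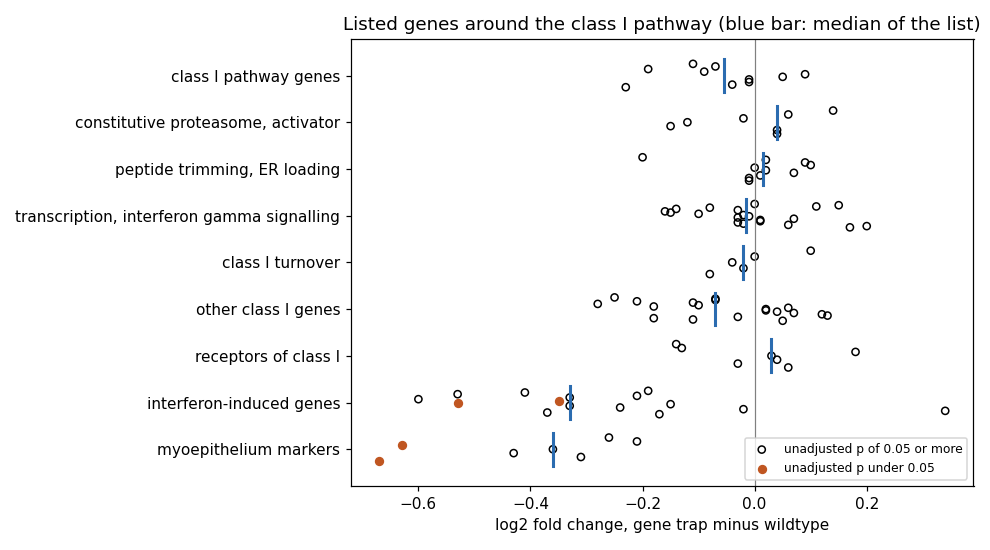
Log2 fold change, gene trap minus wildtype (x axis), of each tested gene of 9 lists (rows), with list medians as blue bars and genes with an unadjusted limma p under 0.05 in orange. The 10 class I genes lie between -0.23 and 0.09, around the median of the other pathway lists, while the interferon-induced genes and the myoepithelium markers have medians of -0.33 and -0.36.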

How the data were processed

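Total RNA of mammary tumors was sequenced after a stranded TruSeq library preparation. The authors deposited 1 table of normalized estimated counts, a signal with fractional values and 0 zeros. Column scaling was checked: median ratios to the gene-wise geometric mean were 1.005 to 1.006. The submitters' processing notes name Partek, STAR (2.7.8a), DESeq2 and mm39. The counter and annotation are not given in the sources used here. Column totals were 31995078 to 42153593. Whole reads could not be recovered, so depth is unknown and no interval for counting error is given.

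Column names matched a labelled tumor for 10 of 16 columns, and 6 were not used. Replicate numbers come from the labels, and equal numbers are different animals. Each tumor counts as 1 replicate, and no 2 tumors had the same values (correlations 0.958 to 0.9881).

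Symbols were matched for 22899 of 23609 identifiers. Genes with a mean of at least 10 were fitted on log2(value + 1) with limma (3.58.1, R 4.3.3), with a mean-variance trend and Benjamini-Hochberg adjustment. Fold changes are on the log2(value + 1) scale. Ratios were compared by exact permutation and correlations with 100000 permutations (scipy 1.17.1). Transcript GC content and length came from GENCODE M21, for 97.6% of tested genes, and the GC correction subtracted a loess curve (span 0.3) of each tumor's deviations. The scripts were tested on simulated data.

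The 10 genes, the lists and the tests were chosen with earlier results of these data known. Genes were named as follows: the 10 pathway genes, Resf1, any tested gene of the proteasome, loading and other class I lists, the 3 genes with the smallest p in each other list, and the 10 genes most like the mean z score of the pathway genes. One gene of the list of class I transcription and interferon gamma signalling is not reported here and is left out of its counts. Epcam, Krt8, Krt18 and Gata3 were named after their values were seen. The GC correction, the count of tumors that were high together and the promoter spacing were added after the data were seen. Alternatives were the replicate block, leaving out each tumor, pseudocounts of 0.5 and 10, no filter and a mean of at least 50, weights per tumor, quantile normalization, the fit with no variance trend, deviations from group means for the correlations, and the GC correction.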

Additional observations from a re-analysis of the deposited data

Results flagged for a closer look

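In 100 groups of 5 tumors (50 genes or ratios in 2 genotypes), a tumor was set apart where its gap to the nearest other was more than 0.71 of the group's range. This was met 6 times, where chance gives about 5. In gene trap replicate 2, Psmb5 was 2977, while its range over the remaining gene trap tumors was 1402 to 1817. H2-Q2 was 276 and H2-Q6 was 636 in wildtype replicate 3, against 185 to 204 and 234 to 328 in the other wildtype tumors. H2-M9 was 30.1 in gene trap replicate 1, against 9.42 to 11.7. Mr1 was 1353 and Hfe 544 in gene trap replicate 5, against 825 to 971 and 375 to 424. None of the 10 pathway genes met this criterion in either genotype.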

How the results depend on the processing

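Under each of the 10 alternatives that kept all tumors and the 10 fits that left out 1 tumor, 0 of the 10 pathway genes and 0 of all genes tested had an adjusted limma p under 0.05; the number of all genes with an unadjusted p under 0.05 was 326 to 580 and 308 to 692. With weights per tumor B2m had an unadjusted limma p of 0.0356, and Tap2 and Tapbp turned to -0.02 and -0.04. With 1 tumor left out, log2 fold changes ranged from -0.20 to -0.05 for H2-K1, -0.16 to 0 for H2-D1, -0.24 to -0.12 for B2m, -0.16 to -0.03 for Tap1, 0 to 0.17 for Tap2, -0.05 to 0.12 for Tapbp, -0.10 to 0.07 for Psmb8, -0.09 to 0.09 for Psmb9, -0.12 to 0.01 for Psmb10, -0.34 to -0.15 for Nlrc5 and -0.28 to -0.17 for Resf1.

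The ratios ranged from -0.26 to -0.04 for Psmb8/Psmb5, -0.14 to 0.03 for Psmb9/Psmb6 and -0.10 to 0.04 for Psmb10/Psmb7 on the log2 scale. The r with Nlrc5 ranged from 0.60 to 0.79 for H2-K1, 0.28 to 0.73 for H2-D1, 0.60 to 0.81 for B2m, 0.16 to 0.61 for Tap1, -0.17 to 0.28 for Tap2, -0.23 to 0.36 for Tapbp, 0.07 to 0.46 for Psmb8, 0.01 to 0.59 for Psmb9 and -0.08 to 0.49 for Psmb10. Quantile normalization raised r to 0.79 for H2-K1 and 0.76 for B2m (adjusted permutation p = 0.0409 for both); the cause was not tested. Deviations from group means gave 0.65 and 0.64 (adjusted permutation p = 0.2241 for both), and the GC correction gave 0.78 and 0.58 (adjusted permutation p = 0.0918 and 0.3489).

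The replicate number as a block gave 0 calls among the 10 genes and 0 among all genes, also together with the GC correction. With the replicate block the ratios were -0.14, -0.07 and -0.02, with exact sign-flip p-values of 0.625, 0.688 and 1. Same-numbered tumors correlated between -0.156 and 0.149 in their deviations, and 2 of 10 tumors were closest to their own number, so the numbers were not taken as pairs. The depth of each tumor is unknown, and precision rests on 5 tumors a group.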
